A study of Caenorhabditis elegans with 2 samples.

Results

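Autosomal divergent promoter sites are places where a tagged Caenorhabditis elegans protein, F22D6.2, was recovered between 2 protein-coding genes that point away from each other. F22D6.2 is listed as mstr-1 in the gene annotation used here. The sites were taken from the authors' list made from both replicates together, on genome build ce11. A region entered when its deposited signal value was at least 40, its summit lay on an autosome between divergent 5' ends at most 1000 bp apart, and no tRNA, snoRNA, snRNA or rRNA gene lay within 200 bp. These choices gave 231 sites out of 26002 listed regions, or 0.888%. They made up 8.68% of the 2662 autosomal summits at that signal. A further 6 summits met the promoter rule but lay near an RNA gene. The signal value chose the sites, so it is given below as a description that supports nothing.

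The study was a chromatin immunoprecipitation with sequencing (ChIP-seq) experiment on whole hermaphrodite young adults, with 2 biological replicates of 1 group and no other condition. The worms were of strain OP399, genotype unc-119(tm4063) III; wgIs399, in which a transgene supplies F22D6.2 carrying a C-terminal GFP-FLAG tag. Their development was synchronized by starvation at the L1 stage after bleaching and they were harvested 67 hours later, and chromatin was sonicated and recovered with an antibody against GFP. The replicate lists held 25000 and 23268 regions, the list from both held 26002, and the authors' thresholded set held 798. All sites come from 1 transgenic line and from whole animals, so the tissue in which the protein sat at a site is not known. No list from worms without the tag was analysed here, so recovery that needs F22D6.2 and recovery that does not cannot be told apart. Read numbers are not in the lists, and the depth behind each signal value is therefore unknown. The peak caller computed the signal value over a control, and its scale is not stated.

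In a divergent promoter, genes on opposite strands start close together and are transcribed outward from a shared stretch of DNA. The worm genome is compact and holds many such pairs. Transcription factors that bind the shared stretch can act on either gene or on both. In C. elegans the annotated 5' end of a gene is often a trans-splice site or a start codon, because the first part of many transcripts is replaced by a spliced leader. The true start of transcription can therefore lie upstream of the annotated end. The stretch between the annotated 5' ends is called a gap below.

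The sites with the highest signal are shown first, since they carry the strongest recovery, as the 100 bases around each summit. Sequences are the plus strand of the RefSeq copy of WBcel235, the assembly known as ce11, written 5' to 3' with positions counted from 1. Capitals mark matches, on either strand, to 5 short words that were more frequent at these summits than elsewhere. The most frequent was ACGCGC, followed by AACGCG and then by CGCGCC and GCGCAC at the same count, with GCGCCA last. The words were picked after the data were seen, and overlapping matches run together. Of these 7 windows, 3 held a match and 4 held none.
rpl-20/Y17G9B.5 (chrIV:4750024-4750123, signal value 432): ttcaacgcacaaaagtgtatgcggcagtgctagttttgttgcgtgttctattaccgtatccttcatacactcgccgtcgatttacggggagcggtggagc
K01G5.10/tasp-1 (chrIII:10759203-10759302, signal value 419): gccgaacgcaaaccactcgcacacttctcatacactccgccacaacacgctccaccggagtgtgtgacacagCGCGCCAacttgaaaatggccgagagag
drr-2/set-16 (chrIII:13643676-13643775, signal value 348): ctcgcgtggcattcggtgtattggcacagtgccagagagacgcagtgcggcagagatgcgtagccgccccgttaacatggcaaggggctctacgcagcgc
rpl-12/lin-54 (chrIV:13240644-13240743, signal value 311): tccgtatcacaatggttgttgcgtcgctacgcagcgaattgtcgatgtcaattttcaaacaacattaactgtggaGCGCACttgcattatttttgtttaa
H12C20.7/nhr-68 (chrV:11572992-11573091, signal value 262): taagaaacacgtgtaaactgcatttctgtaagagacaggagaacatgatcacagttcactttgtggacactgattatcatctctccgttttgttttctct
ifet-1/rps-1 (chrIII:4475597-4475696, signal value 259): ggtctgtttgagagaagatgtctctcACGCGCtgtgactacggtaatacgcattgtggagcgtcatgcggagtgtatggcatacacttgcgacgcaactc
iff-2/F54C9.14 (chrII:8561385-8561484, signal value 249): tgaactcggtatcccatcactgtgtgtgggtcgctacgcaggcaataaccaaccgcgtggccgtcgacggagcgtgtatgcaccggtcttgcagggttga

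The windows with the most matches come next. The windows above have the highest signal of all sites, so any other window must have lower signal. The 4 of them with most are shown. All of them hold the same longer stretch: 4 of the 5 words overlap to spell AACGCGCCA. A single copy of this stretch counts as 4 matches, so ranking windows by matches favours it. Its recurrence here is therefore no separate observation. Among all 231 windows, 11 held it. Capitals have the same meaning as above.
Y61A9LA.10/F54D11.4 (chrV:4615928-4616027, signal value 50.9): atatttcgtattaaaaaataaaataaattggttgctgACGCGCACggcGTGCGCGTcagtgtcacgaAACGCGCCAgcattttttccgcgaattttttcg
mdf-2/nduv-3 (chrIV:2641122-2641221, signal value 43.9): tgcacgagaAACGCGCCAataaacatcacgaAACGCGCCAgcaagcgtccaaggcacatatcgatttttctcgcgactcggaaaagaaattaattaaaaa
dnj-19/nhr-47 (chrV:5505196-5505295, signal value 123): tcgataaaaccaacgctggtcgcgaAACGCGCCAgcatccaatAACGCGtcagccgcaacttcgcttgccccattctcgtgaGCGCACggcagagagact
piit-1/sas-5 (chrV:11610625-11610724, signal value 69): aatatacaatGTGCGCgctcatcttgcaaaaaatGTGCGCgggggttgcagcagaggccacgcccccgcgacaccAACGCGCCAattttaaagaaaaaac

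One window among the highest lies between F44E5.4 and F44E5.5, a near-identical pair of heat-inducible Hsp70 chaperone genes. Capitals there mark TTCNNGAA, the core that heat shock factor is known to bind, which occurred at 2 places in the window.
F44E5.4/F44E5.5 (chrII:11759430-11759529, signal value 229): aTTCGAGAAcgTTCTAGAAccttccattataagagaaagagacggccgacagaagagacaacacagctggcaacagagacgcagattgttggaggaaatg

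The word GCGTCTC or its reverse complement GAGACGC is marked in the next 3 windows. They are the sites of highest signal that held it beyond the windows above, of which drr-2/set-16 and F44E5.4/F44E5.5 held it too.
acdh-9/F28A10.13 (chrII:848664-848763, signal value 129): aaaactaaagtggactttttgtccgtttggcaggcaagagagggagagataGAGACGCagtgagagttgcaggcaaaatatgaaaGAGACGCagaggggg
imp-2/enpl-1 (chrIV:11119216-11119315, signal value 113): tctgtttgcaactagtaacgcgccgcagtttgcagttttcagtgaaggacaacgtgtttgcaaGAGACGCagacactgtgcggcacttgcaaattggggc
jmjd-4/mev-1 (chrIII:10334101-10334200, signal value 110): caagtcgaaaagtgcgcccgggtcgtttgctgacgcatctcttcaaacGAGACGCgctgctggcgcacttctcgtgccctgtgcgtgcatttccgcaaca

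The site with the highest signal lay between rpl-20, a large-subunit ribosomal protein gene, and Y17G9B.5. Its signal value was 432 in the list from both replicates, 214 in replicate 1 and 216 in replicate 2. The next lay between K01G5.10 and tasp-1, the worm counterpart of the mammalian protease taspase, with 419 in the joint list, 190 in replicate 1 and 231 in replicate 2. Its summit was 54 bp from tasp-1 and 731 bp from K01G5.10. The third lay between drr-2, a translation factor linked to dietary restriction, and set-16, a histone H3 lysine methyltransferase of the MLL family. There the values were 348 in the joint list, 170 in replicate 1 and 172 in replicate 2. The replicates nearly coincided at rpl-20 and drr-2, and replicate 2 was the higher at tasp-1.

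Several of the highest sites sat beside genes of protein synthesis. Between rpl-12 and lin-54, which encodes the DNA-binding subunit of the DREAM complex, the signal value was 311 in the joint list, 139 in replicate 1 and 173 in replicate 2. Between rps-1, a protein of the small ribosomal subunit, and ifet-1, a translational repressor that binds the cap-binding protein eIF4E, it was 259, with 118 in replicate 1 and 139 in replicate 2. Between iff-2, which encodes the translation factor eIF5A, and F54C9.14 it was 249, with 118 and 131 in the replicates. Replicate 2 gave the higher value at these 3 sites. Between rps-19 and hsr-9, the worm counterpart of the DNA damage protein 53BP1, the order turned: 127 in replicate 1 and 118 in replicate 2, with 247 in the joint list. At larp-1, which encodes a La-related RNA-binding protein, and wip-1 the joint value was 210, with 109 and 101 in the replicates.

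Chaperone and secretion genes flanked others of the first 15. The F44E5.4/F44E5.5 site had a joint signal of 229, with 110 in replicate 1 and 119 in replicate 2. Its summit was 169 bp from one gene and 182 bp from the other, close to the middle of a gap of 351 bp. The site between Y22D7AL.10 and hsp-60, the mitochondrial chaperonin, had a joint signal of 221, with 104 and 118 in the replicates. The site between cct-8, a subunit of the cytosolic chaperonin, and Y55F3AR.2 had 202, with 97.6 and 98.4. The site between sec-61.B, a subunit of the channel that passes new proteins into the endoplasmic reticulum, and trap-3, a protein associated with that channel, had 203. There replicate 1 gave 114 and replicate 2 gave 87.9.

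The remaining sites of the first 15 lay beside other genes. Between H12C20.7 and nhr-68, a nuclear hormone receptor that acts in propionate metabolism, the joint signal was 262, with 125 and 138 in the replicates. Between F56G4.6 and wbp-4 it was 227, with 136 in replicate 1 and 87.9 in replicate 2, the widest split among the 15. Between cux-7 and C07H6.2 it was 222, with 126 and 95.3. All 15 belonged to the thresholded set and ranked among the 2662 highest autosomal summits in both replicates.

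Over all 231 sites the joint signal ran from 40.1 to 432, with a median of 64.9 and quartiles of 51.2 and 100. The median was 55.9 over 756 autosomal one-sided promoter sites, which met the same signal minimum and had a protein-coding 5' end no more than 500 bp away but lay outside a divergent gap. It was 51.6 over 1416 autosomal sites away from promoters. A thresholded summit lay within 100 bp of 81 of the 231 sites, or 35.1% (exact 95% binomial interval 28.9 to 41.6), against 22.1% of all autosomal summits at signal 40 or more. The share was 23.1% for one-sided promoter sites and 16.9% for sites away from promoters. Intervals here and below cover counting error only. The thresholded set began at a signal of 80.3, so its share follows the signal distribution and adds no separate measurement.

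The replicates were compared by asking whether the nearest summit of each replicate's own list, at most 100 bp away, was one of its 2662 highest autosomal summits. That was so in both replicates at 139 sites, or 60.2% (53.5 to 66.5), against 40.5% of all autosomal summits at signal 40 or more. The share was 43.8% for one-sided promoter sites and 31.6% for sites away from promoters. Another 45 sites were high in replicate 1 only, 33 in replicate 2 only, and 14 in neither. All 50 sites with the highest joint signal were high in both replicates, and 1 of the 50 lowest was. The reads of both replicates made the joint list, so these shares describe how evenly the replicates contributed and are no independent check.

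Both replicates listed a summit within 100 bp at 208 sites, replicate 1 alone at 10, replicate 2 alone at 11, and neither at 2, fnta-1/cogc-8 and rpl-39/rps-30. Over the 208, replicate 1 signal ran from 9.77 to 214 with a median of 35.4, and replicate 2 signal from 10.1 to 231 with a median of 33.3. Spearman's rho between the replicates was 0.632 over these 208 sites, which share the control and were all chosen on the summed evidence of both. Within the thresholded set the largest split in rank towards replicate 1 was at coa-3/F35D11.4, which ranked 253 in replicate 1 and 2883 in replicate 2. The largest towards replicate 2 was at Y71H2AM.20/nduc-2, which ranked 1172 and 252. The replicates' summits lay a median of 29 bp apart (quartiles 15 and 52.2).

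**Figure D1:**
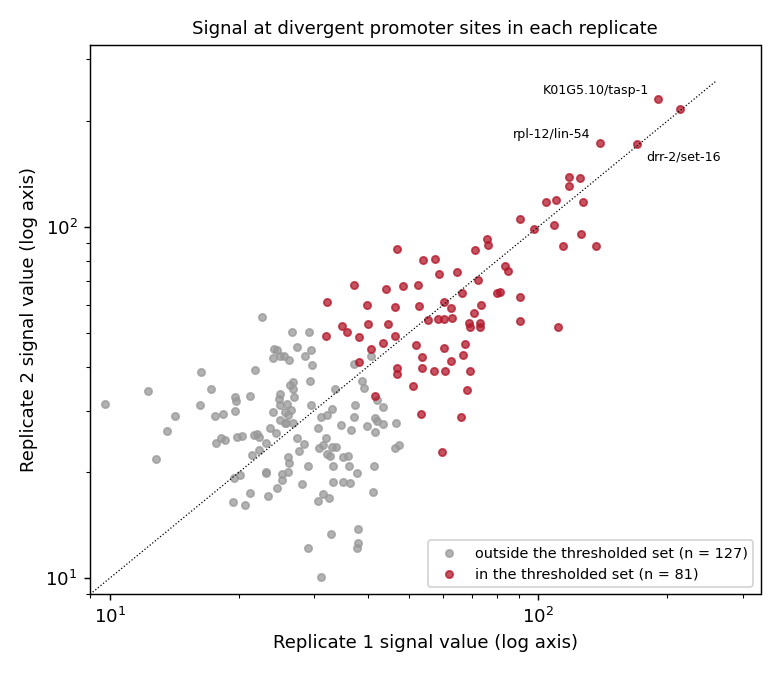
Signal value of each divergent promoter site in replicate 1 (x axis, log) and replicate 2 (y axis, log), for the 208 sites listed in both. Each point is a site, coloured by membership of the thresholded set, and the dotted line marks equal values. Sites spread widely about the line below a value of about 50 and lie closer to it at the top, where K01G5.10/tasp-1, rpl-12/lin-54 and drr-2/set-16 are named.

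At the edge of the signal minimum the sites were not set apart by value. Just inside lay F25E5.9/F25E5.16 at 40.64, gcy-6/trx-2 at 40.18 and F26A3.7/golg-5 at 40.06. Just outside lay a second summit between aka-1 and ubc-6 just under the minimum, snr-6/Y49E10.16 at 39.81 and pqn-21/cye-1 at 39.78. The replicate values overlapped across the edge: 20.7 and 16.2 at F26A3.7/golg-5, against 13.9 and 22.2 at pqn-21/cye-1.

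By the rule every summit lay between the annotated 5' ends of its genes. The limit of 1000 bp on the gap keeps the nearer end within 500 bp and the farther within 1000 bp. The nearer 5' end was a median of 137 bp from the summit (quartiles 61.5 and 201) and the farther one a median of 308 bp (220 and 481). It was the plus-strand gene that was nearer at 129 sites and the minus-strand gene at 102. The nearer end lay within 50 bp at 47 sites, within 100 bp at 86 and within 200 bp at 172, and both ends lay within 500 bp at 180 sites, or 77.9%. Summits at one-sided promoters were a median of 202 bp from the nearest 5' end, but there the rule allowed up to 500 bp on either side of it, so the distances are not on equal terms. No summit lay in a coding exon of an overlapping gene model.

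Within the gap the summits leaned towards the middle. The median distance from the midpoint was 18.7% of the gap's length, where an even spread over the same gaps would give 25%. When each gap was cut into 5 equal parts from left to right, 35, 40, 66, 54 and 36 summits fell in them. The middle 3 parts together held 160 summits, or 69.3%. The middle part held the most, and the 2 outer parts held 35 and 36.

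**Figure D2:**
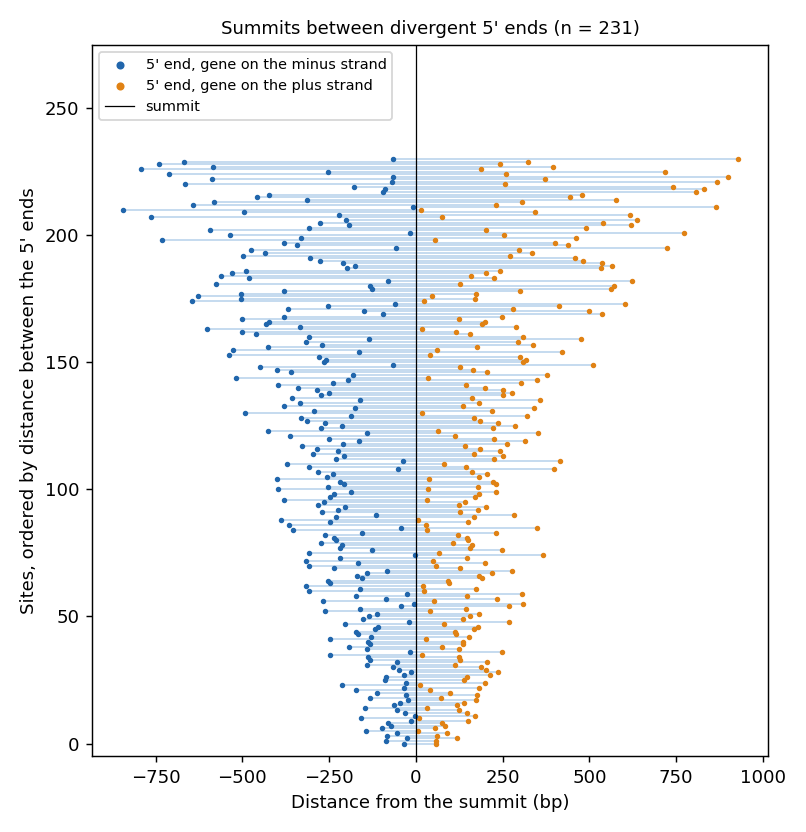
Distance from the summit (x axis, bp) to the annotated 5' ends of the flanking genes at each of the 231 sites, ordered from the shortest gap at the bottom to the longest at the top. Blue points are minus-strand genes, orange points plus-strand genes, and the vertical line is the summit. The nearer end is a median of 41 bp away in the 18 sites of gaps below 200 bp and 231 bp away in the 27 sites of gaps of 800 bp or more.

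Across the autosomes 1664 divergent gaps of up to 1000 bp could hold a site, and 226 of them did, or 13.6%. A region of any signal was listed in 525 gaps (31.6%), of which 298 held no site at the signal minimum, and 1139 gaps held no listed region. One more site, mics-1/lpd-9, had the 5' end of a further gene, erh-1, inside its gap, which is therefore not among the 1664. There were 4 gaps with 2 sites each: cids-2/phip-1 with signals of 91.7 and 73, nmad-1/hach-1 with 82.5 and 42.2, ecps-1/atx-2 with 158 and 59.1, and F29B9.11/jmjd-1.2 with 135 and 47.9. Sites that share a gap share both flanking genes and are not independent of each other.

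The share of gaps with a site was highest at intermediate lengths. It was 7.47% (18 of 241, interval 4.49 to 11.5) below 200 bp, 16.6% (74 of 447) from 200 to 399 bp and 16.4% (62 of 379) from 400 to 599 bp. It was 13.9% (47 of 338) from 600 to 799 bp and 9.65% (25 of 259, 6.34 to 13.9) from 800 bp upward. Gaps with a site had a median length of 456 bp, and gaps without one 478 bp. By chromosome the share was 16.9% on I (54 of 319), 11.4% on II (37 of 324), 19.7% on III (57 of 290), 12.3% on IV (38 of 308) and 9.46% on V (40 of 423).

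The genes beside the sites were grouped with 20 lists made by gene symbol. The lists were drawn up with earlier results of these data known, and their counts are descriptions without a test. The share of gaps with a site was read against 13.6% over all gaps. Of the 231 sites, 108 had a flanking gene on a list and 123 had none.

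Of 45 divergent gaps beside a cytosolic ribosomal protein gene, 22 held a site, or 48.9% (33.7 to 64.2). Their joint signal ran from 40.9 at rpl-39/rps-30 to 432 at rpl-20/Y17G9B.5, with a median of 70.2, and 10 of the 22 were in the thresholded set. Where 1 of the genes was ribosomal, the summit was nearer the other gene at 12 sites and nearer the ribosomal protein gene at 7. Over those same sites the ribosomal protein gene was a median of 282 bp away and the other gene 168 bp. Of 25 gaps beside a gene on the translation factor list, 9 held a site, or 36% (18 to 57.5). That list, made by symbol, left out drr-2 and so the drr-2/set-16 site at 348. After ifet-1/rps-1 and iff-2/F54C9.14 the next listed site was ctf-4/eef-1G, where eef-1G encodes a subunit of elongation factor 1. This site had 138 in the joint list, 73.4 in replicate 1 and 59.8 in replicate 2. Its summit was 33 bp from eef-1G.

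**Figure D3:**
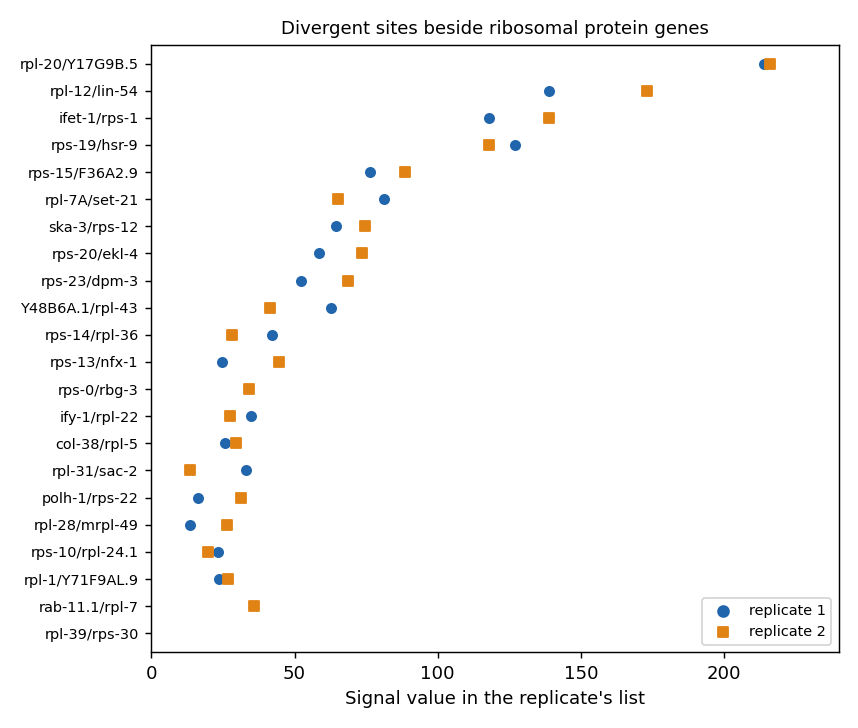
Signal value in replicate 1 (blue circles) and replicate 2 (orange squares) at each of the 22 divergent sites beside a cytosolic ribosomal protein gene, ordered by joint signal. Where a replicate lists no summit within 100 bp there is no marker: replicate 1 at rps-0/rbg-3 and rab-11.1/rpl-7, and both at rpl-39/rps-30. The upper 4 sites are at about 118 or more in both replicates, and at rpl-20/Y17G9B.5 the markers nearly coincide.

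Sites beside mitochondrial ribosomal protein genes had a median signal of 49.3, against 70.2 beside cytosolic ones. Of 25 gaps beside one, 7 held a site, or 28% (12.1 to 49.4). The highest, C14B9.8/mrpl-18, reached 71.1, followed by mrpl-45/Y119D3B.12 at 56.5 and Y39A1A.22/mrpl-12 at 53.2. None of the 7 was in the thresholded set, and 1 was high in both replicates. Aminoacyl-tRNA synthetase genes, which charge tRNAs, flanked 11 gaps, of which 1 held a site: ears-2/uncp-18 at 103, with 37.1 in replicate 1 and 68.3 in replicate 2. Respiratory chain and ATP synthase genes flanked 22 gaps with 3 sites, or 13.6% (2.91 to 34.9). That list missed symbols of complex I subunits, and with them added after the data were seen it held 34 gaps with 8 sites, or 23.5% (10.7 to 41.2). The added sites were Y71H2AM.20/nduc-2 at 102, dnj-29/ndua-2 at 64.5, cup-14/ndub-8 at 63.3, rbc-2/ndua-8 at 56.2 and mdf-2/nduv-3 at 43.9. The highest of all 8 was jmjd-4/mev-1 at 110, where mev-1 encodes a subunit of succinate dehydrogenase.

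Chromatin and synMuv regulators, genes that modify histones or repress transcription with the Rb protein LIN-35, flanked 24 gaps, and 13 of these held a site, or 54.2% (32.8 to 74.4). The 14 sites in them had a median signal of 114, and 8 were in the thresholded set. After drr-2/set-16 and rpl-12/lin-54 the next was lin-53/nra-2 at 159, with 90.6 in replicate 1 and 63.3 in replicate 2, where lin-53 encodes a histone-binding protein. The summit there was 225 bp from lin-53 and 242 bp from nra-2. The site vps-51/lin-35 at 137, with 57.5 in replicate 1 and 81 in replicate 2, was named after its value was seen because it lies beside the Rb gene itself. Replicate 1 was the higher at lin-53 and replicate 2 at lin-35.

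Chaperone genes flanked 26 gaps, and 12 held a site, or 46.2% (26.6 to 66.6). The median signal was 106, 7 of the 12 were in the thresholded set and 11 were high in both replicates. The list, made by symbol, left out F44E5.4/F44E5.5 at 229, with which it would hold 13 of 27 gaps, or 48.1%. Adding a gap that holds a site can only raise the share. Other chaperone genes missed by symbol, with or without a site, were not added. Among the listed sites hsp-60 and cct-8 came first, followed by hsp-110/rpn-3 at 192, with 90.7 in replicate 1 and 105 in replicate 2. Here both genes act in protein quality control, since hsp-110 encodes a partner of Hsp70 and rpn-3 a subunit of the proteasome's regulatory particle. Proteasome and ubiquitin genes as a list flanked 38 gaps with 6 sites, or 15.8% (6.02 to 31.3), close to the share over all gaps. After hsp-110/rpn-3 its highest were aka-1/ubc-6 at 102 and vps-25/uba-2 at 57.2.

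Shares beside RNA processing, transcription and transport genes lay between that of the chaperone list and the 13.6% over all gaps, with wide intervals. Splicing genes flanked 31 gaps with 9 sites, or 29%, led by prp-19/K10D2.5 at 145, rsp-2/rsp-1 at 93.4 and snx-13/snr-1 at 87.1. In rsp-2/rsp-1 both genes encode SR splicing proteins. Vesicle and protein transport genes flanked 34 gaps with 10 sites, or 29.4%, led by sec-61.B/trap-3 and vps-51/lin-35. General transcription and Mediator genes flanked 15 gaps with 4 sites, or 26.7%, led by ift-43/mdt-26 at 91.9. RNA helicase, nucleolar and ribosome biogenesis genes flanked 26 gaps of which 5 held a site, or 19.2%. Its leading site was imp-2/enpl-1 at 113, but imp-2 encodes an intramembrane protease and entered by its symbol only. Cell cycle and DNA replication genes flanked 34 gaps with 5 sites, or 14.7%, led by mib-1/smc-3 at 72.8. None of the 5 was in the thresholded set. The intervals of the general transcription (7.79 to 55.1), ribosome biogenesis (6.55 to 39.4) and cell cycle (4.95 to 31.1) lists include the 13.6% over all gaps. Those of the splicing (14.2 to 48) and transport (15.1 to 47.5) lists begin just above it.

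Chemoreceptor genes, which are expressed mainly in sensory neurons, flanked 109 gaps with 3 sites, or 2.75% (0.571 to 7.83). They included rsr-1/sri-5 at 117 and B0495.9/sre-1 at 45.7. At rsr-1/sri-5 the gene on the other side encodes a splicing-related factor. C-type lectin genes flanked 41 gaps and none held a site (upper limit 8.6%). F-box and MATH-BTB genes flanked 73 gaps with 6 sites, or 8.22% (3.08 to 17), led by fbxb-85/hex-3 at 144. Sperm protein genes flanked 25 gaps with 1 site (0.101% to 20.4%), spe-48/Y51F10.11 at 134. The intervals of the F-box and sperm protein lists include the 13.6% over all gaps.

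Collagen genes flanked 19 gaps with 3 sites, or 15.8% (3.38 to 39.6), led by col-71/Y49F6B.2 at 92.8, and at all 3 the summit was nearer the other gene. Nuclear hormone receptor genes flanked 15 gaps with 3 sites, or 20% (4.33 to 48.1): nhr-68, dnj-19/nhr-47 at 123 and nhr-142/F44E7.9 at 109. All 3 were in the thresholded set. Homeobox genes flanked 4 gaps with 1 site, malt-1/ceh-38 at 79.6.

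**Figure D4:**
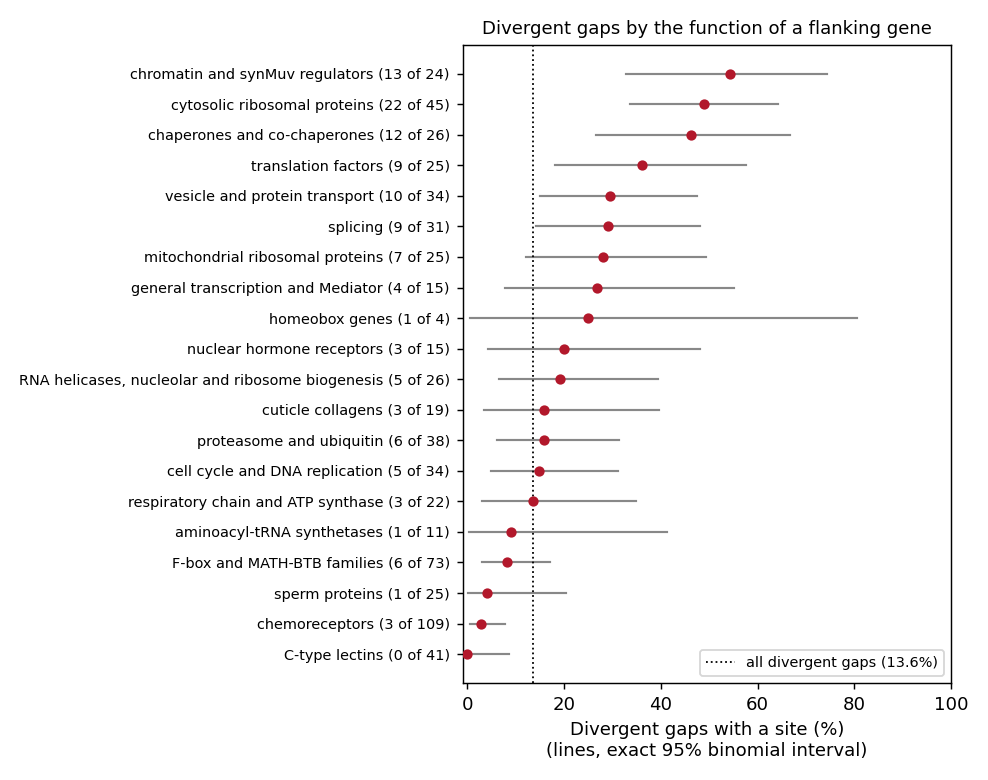
Share of autosomal divergent gaps that held a site (x axis, %), for gaps beside at least 1 gene of each of the 20 lists. Points are shares, lines are exact 95% binomial intervals, counts stand beside the list names, and the dotted line is the 13.6% over all gaps. Chromatin regulators (54.2%), cytosolic ribosomal proteins (48.9%) and chaperones (46.2%) are at the top, and C-type lectins (0 of 41) and chemoreceptors (2.75%) at the bottom.

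The first 13 lists of general cell functions, from ribosomal proteins to ribosome biogenesis, were also counted over both sides of a gap. A site was present in 133 of 1346 gaps with no gene on these lists, or 9.88% (8.34 to 11.6). It was present in 75 of 271 gaps with 1 such gene, or 27.7% (22.4 to 33.4), and in 18 of 47 gaps with such genes on both sides, or 38.3% (24.5 to 53.6). The 18 included pairs from a single list, such as rps-14/rpl-36 at 75.4, snr-3/rsp-5 at 48.2 and rps-10/rpl-24.1 at 44.8. Most gaps with general-function genes on both sides held no site. With the symbols added to the respiratory and chaperone lists the shares were 9.59%, 28% and 40%.

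The DNA at the summits was richer in G and C than its surroundings. The median GC content of the central 100 bp was 48% (quartiles 42 and 52). It was 29% in windows of the same gaps centred 150 bp from the summit and 33% in the middle of 1388 divergent gaps without a site. At 47 sites a 5' end lay within 50 bp of the summit. Windows at summits and at gap middles therefore also differ in their position in the gap. One-sided promoter sites had a median of 43% and sites away from promoters 42.5%. The dinucleotide CG occurred 7.17 times per 100 bp at the summits, 3.29 times in the same gaps away from the summit and 3.47 times in the middle of gaps without a site. Set against the bases present, CG was at 1.33 times the expected rate at the summits, 1.41 in the same gaps away from them and 1.19 in gaps without a site. In 20 bp bins the mean GC content peaked at 49.9% just left of the summit. It fell to 30.9% at 150 bp on the left and 28.7% at 130 bp on the right. Farther out it rose again, to 37.2% at 390 bp on the left and 36.7% at 390 bp on the right. The windows 150 bp from the summit thus lay near the low of the profile. Sequencing and read mapping can favour GC-rich fragments, and the part of that in the recovery was not tested.

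Of 2080 6-letter words, the 5 with the largest excess over gaps without a site were those marked in the sequences above. GCGCCA was in 17.3% of the central windows against 2.09% of the windows from gaps without a site, ACGCGC in 19.5% against 4.39%, CGCGCC in 17.7% against 2.95%, AACGCG in 18.2% against 3.67% and GCGCAC in 17.7% against 4.18%. The words were chosen on these same windows, which fixed their excess over gaps without a site. The choice also favours the sites over the other windows compared. At least 1 of the words was present at 108 sites, or 46.8%. The share was 7.38% in the same gaps 150 bp from the summit, 11.7% in gaps without a site and 23.9% at one-sided promoter sites. Among windows of 42 to 52% GC, a limit added after the data were seen, it was 46.8% at the sites, 23.1% in gaps without a site and 31.8% at one-sided promoter sites. The joined stretch AACGCGCCA was in 11 of the 231 windows, or 4.76%, in 4 of 1388 windows from gaps without a site, and in 14 of 756 one-sided windows, or 1.85%.

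Split by the thresholded set, the words were about equally frequent. At least 1 was present at 46.9% of the thresholded sites and at 46.7% of the others. At signal 60 or more the share was 51.9% (67 of 129), against 46.8% over all sites. The 50 sites with the highest signal led with different words, also chosen after seeing the data. ACGCAG was in 12 of these 50 windows against 14 of the other 181, or 7.73%. It was in 3.53% of windows from gaps without a site and 9.52% of one-sided promoter windows. Among the windows printed above it can be read at drr-2/set-16, rpl-12/lin-54, iff-2/F54C9.14 and F44E5.4/F44E5.5, and at acdh-9/F28A10.13 and imp-2/enpl-1. ACCGTA was in 12 of the 50 against 18 of the 181, or 9.94%. It was in 5.04% of windows from gaps without a site and 3.7% of one-sided promoter windows.

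**Figure D5:**
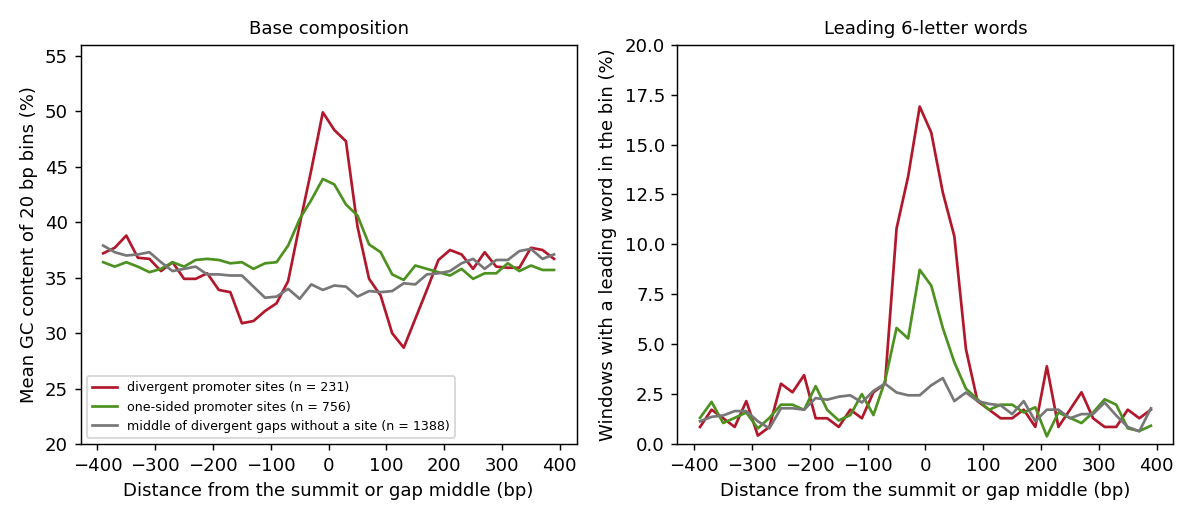
Mean GC content (left, %) and share of windows with 1 of the 5 leading words (right, %) in 20 bp bins against distance from the summit, or from the gap middle (bp). Lines are the 231 divergent promoter sites, 756 one-sided promoter sites and 1388 divergent gaps without a site. At the divergent sites GC reaches 49.9% and the words 16.9% of windows in the bin just left of the summit. Both decline on either side, and GC rises again beyond a low at 130 to 150 bp.

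Known motifs were counted on both strands of the central 100 bp. GCGTCTC was in 6.93% of the windows, against 1.66% in gaps without a site and 6.35% at one-sided promoter sites. It was in 11.1% of thresholded sites and 4.67% of the others. GAGAGA was in 15.6% of the windows, against 7.28% in gaps without a site and 15.5% at one-sided promoter sites. Both were thus as frequent at one-sided as at divergent promoter sites. AT-rich motifs ran the other way. TATAAA, the core of the TATA box, was in 5.19% of the windows against 14.3% in gaps without a site, TTTGAA in 15.2% against 29%, and a run of TTTTTTT in 12.1% against 24.3%.

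The other motifs differed less. TTCGCGC, a site of the E2F kind, was in 3.03% of the windows against 1.66% in gaps without a site, and CCAAT in 18.6% against 14.6%. The heat shock core TTCNNGAA was in 5.19% against 5.4%, about the same share, although F44E5.4/F44E5.5 held it at 2 places. GTTCGA, found in the internal promoters of tRNA genes, was in 3.9% against 3.46%. The GATA motif GATAAG was in 2.6% against 5.62%. The E-box CACGTG was in 1.73% against 2.02%, and in 5.69% of one-sided promoter windows. A match is only the presence of these letters and does not show that a factor was bound.

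Some windows held sequence that recurs in the genome, where short reads can be hard to place. This count was added after the data were seen. A 20-letter word found at least 10 times in the nuclear chromosomes was present in 24 of the 231 windows, or 10.4%. The share was 9.15% in the middle of gaps without a site, 5.82% at one-sided promoter sites and 7.91% at sites away from promoters. Of the 24 sites, 6 were in the thresholded set and 12 were high in both replicates. They included rpl-12/lin-54 with up to 25 copies, aka-1/ubc-6 with 105 and Y48B6A.1/rpl-43 with 125. Without the 24 sites, 12.2% of gaps held a site, 42.2% of those beside cytosolic ribosomal protein genes, 50% of those beside chromatin regulators and 42.3% of those beside chaperones.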

How the data were processed

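Both samples were ChIP-seq libraries of 1 group, compared through the deposited ce11 lists. The ce10 lists were not used. Per the labels, the authors listed peaks and background for each replicate and for both together, aligned reads being set against a control, and took the thresholded set from these by irreproducible discovery rate (IDR). The aligner, peak caller, IDR threshold and read depth are not given in the sources used here. The deposited signal value is the authors' own, and it served to filter, order and describe regions inside 1 list. The authors' −log10 q-value has a ceiling that many regions reach and ranked nothing here. Of the regions in the joint list, 99.1% had the same width of 436 bp, so widths were not compared.

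Summits were placed by the deposited offset and matched within 100 bp. Gene models were Ensembl release 115 for WBcel235 and sequence its RefSeq copy. Counts and shares were computed with Python 3.11.15, numpy 2.4.6 and scipy 1.17.1, and the functions were tested on simulated data. The members, the gene lists, the motifs and the rule for named genes (the 15 sites with the highest signal, up to 3 for each list, 3 on either side of the signal minimum) were chosen with earlier results of these data known. Sites are not replicates, and the replicates' reads made the joint list, so no test was run. Alternatives changed the signal minimum, the gap limit, the distance to RNA genes, the summit match, the window, the 5' ends, repeated summits and each replicate. One site that the rule would name is not reported here.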

Additional observations from a re-analysis of the deposited data

How the results depend on the processing

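Of 131 recomputed values under 13 settings, 103 stayed within the reported share's exact 95% interval, the spread between replicate lists or, for the number of sites, 1.5 times, and 28 moved further. For small lists that interval is wide. The number of sites fell to 129 at a signal of at least 60, to 81 in the thresholded set only and to 129 with gaps of at most 500 bp, and transcript-level 5' ends gave 250. The share of gaps with a site became 7.63% at signal 60 and 4.81% in the thresholded set, and 11.3% to 12.1% with either replicate's list alone, cut to the same number of summits. The share in the thresholded set became 62.8% at signal 60 and 100% in the thresholded set, by construction. The share high in both replicates became 92.2% at signal 60, 98.8% in the thresholded set, 51.5% with summits matched within 50 bp, and 67.1% to 69% with 1 replicate left out. The median distance from the middle of the gap became 15.4% with gaps of at most 500 bp and 19.1% to 21.4% with 1 replicate left out. Median GC was 50% at signal 60, 51% in the thresholded set, 47% with the shorter gap limit, 39.5% over the central 200 bp, and 46% to 47% with 1 replicate left out. GCGTCTC was in 11.1% of windows in the thresholded set. Over the central 200 bp, which offers more places for a match, GAGAGA was in 22.1%, TTTGAA in 41.6%, TTTTTTT in 39.8% and a leading 6-letter word in 58.4%. Gaps beside cytosolic ribosomal protein genes held a site in 28.9% at signal 60 and 22.2% in the thresholded set. In the thresholded set the share was also 26.9% beside chaperone genes and 33.3% beside chromatin regulators, inside their wide intervals, and GCGTCTC was in 10.4% of windows over the central 200 bp. A stricter signal minimum, the thresholded set or a shorter gap limit can only remove sites, so the lower counts follow from these settings. So do the lower shares of gaps at signal 60 and in the thresholded set. With 1 replicate left out, the sites are high in the replicate kept by selection, which raises the share high in both. The cause of the other changes was not tested.

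No paired analysis was possible because the 2 replicates belong to 1 group. With 2 replicates, no condition to compare and an unknown read depth, the shares describe these lists only, and a gap without a listed region is not shown to be unbound. Annotated 5' ends and symbol-based lists also limit which gaps and genes were counted.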
